A study of Mus musculus with 75 samples.

Results

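The genes described here are 7 markers of the podocyte, the epithelial cell that wraps the glomerular capillaries: Nphs1, Podxl, Synpo, Wt1, Cdkn1c, Ptpro and Magi2. They were picked out of the deposited count table by their symbols, with no threshold on their values, and all 7 had a row among its 32245 genes. Podocyte foot processes interdigitate around the capillary and are joined by the slit diaphragm, the last barrier of the glomerular filter. Nephrin (Nphs1) forms the diaphragm, the scaffold Magi2 holds it, the sialylated surface protein podocalyxin (Podxl) and the receptor phosphatase Ptpro (GLEPP1) sit on the foot process membrane, synaptopodin (Synpo) organizes its actin, the transcription factor Wt1 maintains podocyte identity, and the cyclin-dependent kinase inhibitor Cdkn1c (p57) is known for the non-dividing state of the mature cell.

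RNA from whole mouse kidneys was sequenced as 75 bulk libraries in 12 groups, 6 mouse groups by 2 kidneys. Mice had unilateral ureteral obstruction (UUO) for 3 days, with the analgesic carprofen, and the obstructed kidney was compared with contralateral kidneys (CL), which stay unobstructed in the same body and are not healthy controls. The question for the podocyte genes was whether obstruction changed them, and whether TIE2 activation or loss of PDGFB changed that response. Podocytes are a small part of the kidney, and in whole-tissue RNA fewer podocytes and less RNA per podocyte cannot be told apart.

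In the ABTAA experiment, adult wild-type mice received ABTAA, an antibody that clusters angiopoietin-2 and thereby activates the endothelial receptor TIE2 (ABT, 7 CL and 7 UUO libraries), or human IgG Fc (IgG, 8 and 8). In the Veptp experiment, mice that lost the TIE2 phosphatase Veptp (gene Ptprb) from endothelium through tamoxifen and Cdh5-CreERT2 (VeKO, 6 and 8) were set beside littermates that carried the same Cre and 1 floxed allele but were not induced (VeWT, 7 and 8), so that tamoxifen itself differed between them. In the Pdgfb experiment, floxed mice with an inducible Cre under an actin promoter, which acts throughout the body (PbKO, 4 and 4), were set beside floxed or heterozygous littermates without Cre (PbWT, 4 and 4). Both genetic lines were of mixed background and both sexes were used. Kidneys of 2 sham-operated mice stand in the PbWT CL group and are not marked in the labels, which also do not pair the CL and UUO kidneys of a mouse. By the study's methods the animal was the unit of replication, and the libraries of a group were taken as separate mice. The methods give 7 VeWT mice where the labels hold 8 VeWT UUO libraries, so that labels and methods differ there. The CL and UUO kidneys came largely from the same mice, and the fits treat them as independent.

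Depth was low: libraries held 172827 to 2341800 counts, with a median of 757897, and 7 held under 300000. Library names came in 2 forms, 30 with a separator between letter and number (ABTAA and Veptp experiments only) and 45 without, and the forms were not explained. Xist and Y-linked genes both reached 10 counts in 24 libraries, among them all 4 PbKO UUO libraries. Ptprb averaged 32.6 ± 5.80 CPM (counts relative to the scaled library total; SD, n = 6) in VeKO CL and 50.8 ± 18.7 (n = 7) in VeWT CL, and 31.4 ± 17.6 (n = 8) in VeKO UUO and 48.2 ± 26.2 (n = 8) in VeWT UUO, with overlapping ranges. Pdgfb averaged 19.0 ± 4.01 CPM in PbKO CL and 10.4 ± 6.75 in PbWT CL (n = 4 each), so that the CL kidneys labelled PbKO did not have less Pdgfb RNA than their controls, and 37.2 ± 3.31 in PbKO UUO and 53.2 ± 6.52 in PbWT UUO (n = 4 each). The VeKO CL library of replicate 2 stood apart, with 227 CPM of the tubular injury marker Havcr1, where no other CL library passed 69.6 and the lowest UUO library had 281.

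Counts of the podocyte genes set the precision. Over the 75 libraries, the lowest, median and highest counts were 11, 86 and 302 for Podxl, 5, 36 and 176 for Synpo, 1, 14 and 88 for Nphs1, 1, 11 and 58 for Ptpro, 0, 7 and 35 for Magi2, 0, 5 and 27 for Wt1, and 0, 5 and 25 for Cdkn1c. Wt1 was at 0 in 2 libraries, Cdkn1c in 1 and Magi2 in 3. Through these low counts, Nphs1, Podxl, Synpo and Ptpro passed the filter on low values in all 3 experiments, Magi2 in the Veptp and Pdgfb experiments, Cdkn1c in the Veptp experiment alone and Wt1 in the Pdgfb experiment alone, while all 7 passed in the fit over all 12 groups. On GRCm38, the genes lie at chr7:30458315-30487223 (Nphs1, plus strand), chr6:31519488-31563981 (Podxl, minus), chr18:60593973-60660142 (Synpo, minus), chr2:105126529-105173616 (Wt1, plus), chr7:143458339-143461050 (Cdkn1c, minus), chr6:137252319-137463233 (Ptpro, plus) and chr5:19227036-20704792 (Magi2, plus), each taken over its whole span of exons and introns in GENCODE vM21. Nphs1 overlaps Nphs1os and Rps12-ps4 on the opposite strand, Cdkn1c overlaps Gm44732 on the opposite strand, Ptpro overlaps Gm44258 on its own strand, and Magi2 overlaps 8 small genes. Counting by strand was not stated in the sources used here, so that reads of these overlapping genes cannot be told apart.

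UUO moved the podocyte genes in both directions and by little. Averaged over the 6 mouse groups, Synpo rose by 0.35 on the log2 scale, while Podxl fell by 0.29, Magi2 fell by 0.44 and Cdkn1c fell by 0.45. Nphs1, Wt1 and Ptpro did not pass the test. Each gene was tested with the quasi-likelihood model of edgeR, with p-values adjusted by Benjamini-Hochberg over 12210 genes, of which 50.6% passed an adjusted p of 0.05 (25.7% higher and 24.9% lower in UUO), so that 4 of 7 podocyte genes called was close to the share of all genes. The median of the 7 changes was -0.15, beside 0.02 over all genes tested. These are changes relative to the other genes: without TMM scaling of the libraries, the median over all genes was 0.21, Synpo still passed, Podxl (-0.12), Magi2 (-0.24) and Cdkn1c (-0.25) did not, Ptpro did (0.48, adjusted p = 0.0114), and Nphs1 and Wt1 lay just above 0.

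**Figure D1:**
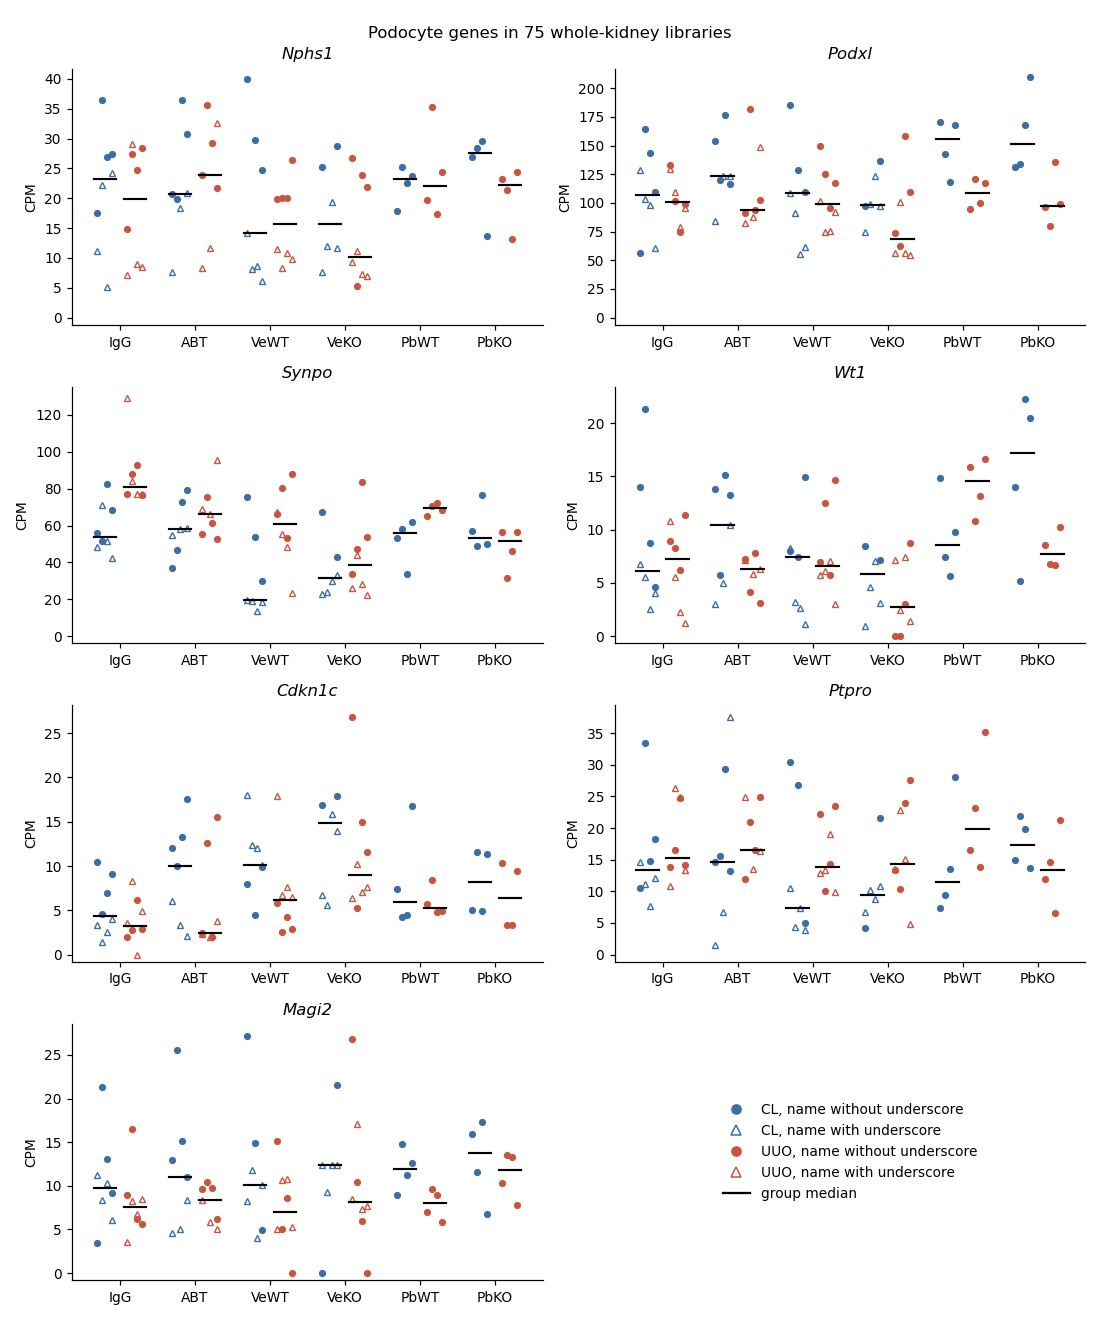
Level of each podocyte gene in CPM (y axis) in each of the 75 libraries, by mouse group (x axis), with CL in blue, UUO in red, filled circles for library names without a separator, open triangles for names with one, and a black line at the group median. The CL and UUO points overlap in every panel and group except Synpo in PbWT, where all 4 UUO libraries lie above the 4 CL libraries.

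Synpo, the actin-associated protein of the foot process, was the gene that rose, and which cells of the kidney gave this RNA was not tested. In IgG mice its lowest, median and highest levels were 42.5, 53.9 and 82.6 CPM in CL and 76.6, 80.8 and 129 CPM in UUO, and 4 of 8 UUO libraries lay above the highest CL library. The change in IgG was 0.57 ± 0.16 (log2, SE; adjusted p = 0.00647), in a comparison in which 34.5% of genes passed, and Synpo was the 1 podocyte gene of 4 tested that passed there. It passed with the 4 and 4 libraries with a separator in the name alone (0.75, adjusted p = 0.0101). It did not pass with the 4 and 4 without one (0.38, adjusted p = 0.257), nor with all 12 groups in 1 fit (0.55, adjusted p = 0.0820).

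In ABT mice, Synpo ran from 37.0 over a median of 58.3 to 79.2 CPM in CL and from 52.8 over 66.0 to 95.6 CPM in UUO, a change of 0.27 ± 0.17 that did not pass (adjusted p = 0.268, 25.1% of genes passing). In VeWT it ran from 13.4 over 19.5 to 75.2 CPM in CL and from 23.6 over 60.9 to 88.0 CPM in UUO. The VeWT medians lay further apart than those of any other mouse group, but the change of 0.91 ± 0.35 missed the threshold (adjusted p = 0.0661, 18.4% of genes passing). The change was 1.49 (adjusted p = 0.000558) over the libraries with a separator and 0.40 (adjusted p = 0.406) over those without. It passed with DESeq2 (0.95, adjusted p = 0.0473) and with all 12 groups in 1 fit (0.91, adjusted p = 0.00423). It also passed without VeWT CL replicate 1 (1.09, adjusted p = 0.0332), without VeWT CL replicate 2 (1.27, adjusted p = 0.00747) or without VeWT UUO replicate 8 (1.03, adjusted p = 0.0311), and with the replicate number as a block (0.63, adjusted p = 0.0179), a fit in which Cdkn1c also passed (-0.96, adjusted p = 0.0219). The Xist level, high in female kidneys, had a median of 0.82 in VeWT CL and 8.27 in VeWT UUO (log2 of CPM + 1), and with Xist as a covariate the Synpo change was 0.74 (adjusted p = 0.0427).

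In VeKO, Synpo ran from 23.0 over 31.6 to 67.4 CPM in CL and from 22.2 over 38.7 to 83.6 CPM in UUO, a change of 0.25 ± 0.37 (adjusted p = 0.791, 7.96% of genes passing). In PbWT the 4 CL libraries had 33.9, 61.6, 53.4 and 58.0 CPM and the 4 UUO libraries 65.4, 72.0, 70.5 and 68.3 CPM. These 2 groups did not overlap (how many of all genes did not was not counted), yet the change of 0.43 ± 0.19 did not pass (adjusted p = 0.0800, 37.3% of genes passing). Without TMM scaling it was 0.81 and passed (adjusted p = 0.00104), but there the median of all genes was 0.41, beside 0.04 with it, and 51.3% of genes passed. In PbKO the CL libraries had 49.0, 76.7, 50.0 and 56.8 CPM and the UUO libraries 46.4, 31.5, 56.6 and 56.6 CPM, which overlapped, with a change of -0.24 ± 0.21 (adjusted p = 0.574, 6.37% of genes passing). Of the 6 mouse groups, PbKO was the 1 in which the Synpo change was below 0. Averaged over the 6 groups, the change was 0.35 ± 0.12 (95% confidence interval 0.12 to 0.58, adjusted p = 0.00927), but it was 0.17 (adjusted p = 0.218) over the libraries without a separator and 0.69 (adjusted p = 5.7e-05) over those with one.

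Podxl, the sialomucin of the podocyte surface, is also made by endothelium and is used as a capillary marker. Its highest group medians were in the Pdgfb CL kidneys. The PbWT CL libraries had 119, 168, 171 and 142 CPM and the PbWT UUO libraries 94.6, 100.1, 121 and 117 CPM, so that 3 of 4 UUO libraries lay below every CL library. Podxl fell by 0.46 ± 0.17 on the log2 scale (adjusted p = 0.0309). The PbKO CL libraries had 134, 168, 209 and 132 CPM and the PbKO UUO libraries 136, 80.0, 96.1 and 99.0 CPM, where again 3 of 4 lay below every CL library and the fourth lay among them. Podxl fell by 0.67 ± 0.18 there (adjusted p = 0.0235). It was the 1 podocyte gene of 6 tested that passed in each of these 2 comparisons, in which 37.3% (PbWT) and 6.37% (PbKO) of all genes passed.

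Both Podxl calls rested on few libraries. The PbWT call was lost without PbWT CL replicate 2 or 3 or without PbWT UUO replicate 1 or 2 (changes of -0.42 to -0.40, adjusted p from 0.0814 to 0.0923). The PbKO call was lost without PbKO CL replicate 2 or 3 or without PbKO UUO replicate 2, 3 or 4 (changes of -0.67 to -0.53, adjusted p from 0.0534 to 0.103). With all 12 groups in 1 fit neither passed (-0.468 in PbWT, adjusted p = 0.264, and -0.665 in PbKO, adjusted p = 0.394), although the changes were about as large. Without TMM scaling the PbWT change was -0.08 (adjusted p = 0.677).

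In the other mouse groups Podxl ran from 56.0 over 107 to 164 CPM in IgG CL and from 74.3 over 100.4 to 133 CPM in IgG UUO, from 83.8 over 123 to 177 CPM in ABT CL and from 82.0 over 93.6 to 182 CPM in ABT UUO. It ran from 55.5 over 109 to 186 CPM in VeWT CL and from 74.3 over 98.8 to 149 CPM in VeWT UUO, and from 74.7 over 98.0 to 136 CPM in VeKO CL and from 54.2 over 68.2 to 158 CPM in VeKO UUO. The UUO median was the lower of the pair in all 6 mouse groups, although the ranges overlapped. The changes in IgG (-0.06 ± 0.20), ABT (-0.17 ± 0.20), VeWT (-0.01 ± 0.25) and VeKO (-0.30 ± 0.26) did not pass (adjusted p from 0.598 to 0.978). The averaged change of -0.29 ± 0.10 (95% confidence interval -0.49 to -0.10, adjusted p = 0.00990) was -0.33 (adjusted p = 0.00903) over libraries without a separator and -0.10 (adjusted p = 0.523) over those with one.

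Because Podxl is shared with endothelium, 14 endothelial genes were read beside it, of which 13 were tested in the averaged comparison. Ehd3, a marker of glomerular endothelium (-0.65, adjusted p = 9.3e-06), Emcn, the capillary sialomucin endomucin (-0.47, adjusted p = 0.000376), and the VEGF receptor Kdr (-0.42, adjusted p = 0.00681) fell, Cdh5 (VE-cadherin) rose (0.39, adjusted p = 0.00491) and 9 did not pass. The summed level of the list ran from 297 to 857 CPM in CL and from 250.3 to 661 CPM in UUO, and none of the defining genes Pecam1, Cdh5 and Ehd3 was at 0 in any library. The part of endothelial RNA in the Podxl change was not tested.

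Magi2, the scaffold under nephrin, had group medians of 9.73 and 7.54 CPM in IgG CL and UUO, 11.0 and 8.32 in ABT, 10.1 and 6.96 in VeWT, 12.4 and 8.09 in VeKO, 11.9 and 7.99 in PbWT, and 13.8 and 11.8 in PbKO. The UUO median was the lower in each of the 6, and the ranges overlapped in each. The changes were between -0.63 and -0.28 in the 6 mouse groups (in IgG and ABT from a fit without the filter) and none passed, whereas the averaged change of -0.44 ± 0.17 did (95% confidence interval -0.78 to -0.11, adjusted p = 0.0214). Over the libraries with a separator it was -0.12 (adjusted p = 0.696), and over those without -0.67 (adjusted p = 0.0229).

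Cdkn1c had group medians of 4.31 and 3.21 CPM in IgG CL and UUO, 9.96 and 2.40 in ABT, 10.1 and 6.15 in VeWT, 14.9 and 8.94 in VeKO, 5.97 and 5.30 in PbWT, and 8.18 and 6.40 in PbKO. Here too the UUO median was lower in all 6 mouse groups, with overlapping ranges. No mouse group passed in the main fits or, outside the Veptp experiment, in the fits without the filter. With the replicate number as a block, VeWT passed (-0.96, adjusted p = 0.0219) and VeKO turned to 0.22 (adjusted p = 0.739). The averaged change of -0.45 ± 0.18 (95% confidence interval -0.82 to -0.08, adjusted p = 0.0366) lay near the threshold. The call was lost in turn without 12 of the 75 libraries (IgG CL replicates 2 and 3, ABT CL 4, IgG UUO 1, ABT UUO 3 and 6, VeWT CL 4, VeKO CL 5, PbWT CL 2, PbKO CL 1 and 3, and PbKO UUO 2), with adjusted p from 0.0511 to 0.118, and DESeq2 did not make it (-0.41, adjusted p = 0.0820). Nor was it made without the filter (-0.432, adjusted p = 0.0673) or without the Veptp libraries numbered 3, 4, 7 and 8 (-0.428, adjusted p = 0.0615), where the change was about as large. Over the libraries with a separator the change was -0.16 (adjusted p = 0.685), and over those without -0.61 (adjusted p = 0.0224).

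Nphs1, which forms the slit diaphragm, had group medians of 23.3 and 19.8 CPM in IgG CL and UUO, 20.7 and 24.0 in ABT, 14.3 and 15.6 in VeWT, 15.7 and 10.2 in VeKO, 23.2 and 22.0 in PbWT, and 27.6 and 22.3 in PbKO. The medians differed in either direction and no range was free of overlap. The averaged change was -0.15 ± 0.16, with a 95% confidence interval of -0.46 to 0.17 (adjusted p = 0.459), so that the data allow a fall or a small rise.

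Ptpro, the receptor phosphatase of the foot process, had higher UUO than CL medians in 5 of 6 mouse groups (13.4 and 15.3 CPM in IgG, 14.6 and 16.6 in ABT, 7.35 and 13.9 in VeWT, 9.50 and 14.3 in VeKO, 11.5 and 19.9 in PbWT, CL first) and a lower one in PbKO (17.4 and 13.3). The ranges overlapped in all 6. The averaged change was 0.28 ± 0.17 (95% confidence interval -0.05 to 0.62, adjusted p = 0.158), and it was 0.72 (adjusted p = 0.0199) over the libraries with a separator and 0.03 (adjusted p = 0.911) over those without. In PbWT the change of 0.58 ± 0.34 (adjusted p = 0.198) passed without PbWT CL replicate 2 (1.05, adjusted p = 0.0261) and, with the shift of all genes, without TMM scaling (0.96, adjusted p = 0.0213).

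Wt1, the transcription factor, had group medians of 6.15 and 7.22 CPM in IgG CL and UUO, 10.4 and 6.29 in ABT, 7.46 and 6.57 in VeWT, 5.84 and 2.71 in VeKO, 8.59 and 14.5 in PbWT, and 17.2 and 7.67 in PbKO. Its averaged change was -0.15 ± 0.18 (95% confidence interval -0.51 to 0.22, adjusted p = 0.531), and in the Pdgfb experiment the changes of 0.59 ± 0.35 in PbWT and -0.72 ± 0.40 in PbKO did not pass either, although without TMM scaling, with its shift of all genes, the PbWT change did (0.97, adjusted p = 0.0193). Wt1 is also made by mesothelium. The mesothelial genes Upk3b and Msln were at 0 in 19 and 26 of 75 libraries, and the summed level of the mesothelial list without Wt1 ran from 0 to 79.3 CPM in CL and from 0 to 73.1 CPM in UUO. Of 4 tested genes of that list Msln rose (1.20, adjusted p = 0.0111) and 3 did not pass, Wt1 itself, Upk3b (-0.25, adjusted p = 0.603) and Upk1b (0.24, adjusted p = 0.734). The part of mesothelial RNA in Wt1 was not tested.

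**Figure D2:**
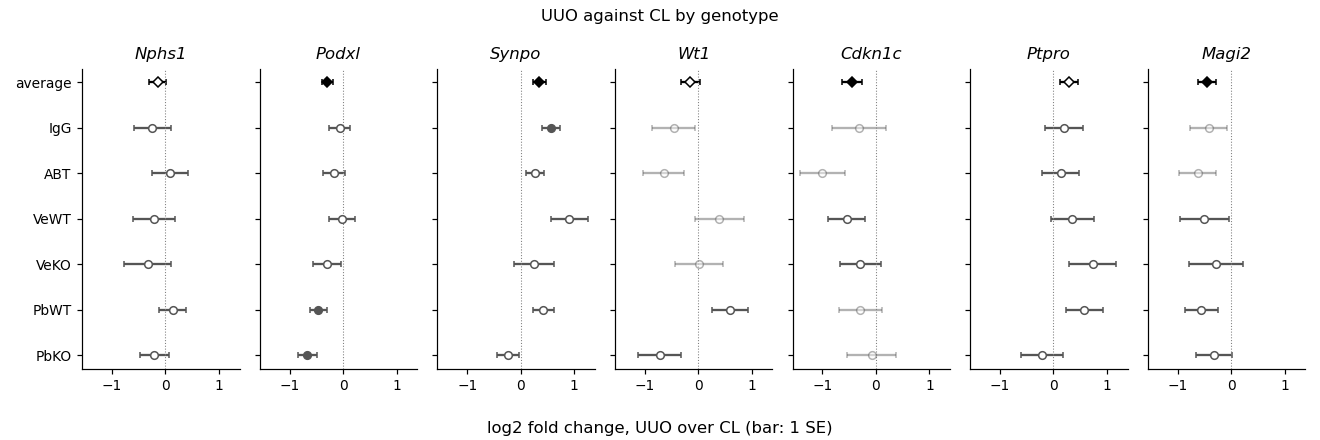
Change of each podocyte gene in UUO over CL (x axis, log2 fold change, bars of 1 SE) averaged over the 6 mouse groups (diamonds) and in each (circles), filled where the adjusted p was below 0.05 and pale where the gene did not pass the filter on low values. The averaged changes of Podxl, Synpo, Cdkn1c and Magi2 are filled, and among the mouse groups Synpo in IgG (0.57) and Podxl in PbWT (-0.46) and PbKO (-0.67).

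In the quasi-likelihood test with TMM scaling, no podocyte gene passed the threshold between the ABT, VeKO or PbKO libraries and their controls. The libraries are called by their labels, since neither Ptprb nor Pdgfb passed as lower in VeKO or PbKO, although the rise of Pdgfb with UUO was smaller in PbKO than in PbWT (difference -1.26, adjusted p = 0.0458). Between ABT and IgG, 0 of 4 podocyte genes passed in UUO, in CL or in the response to UUO, in each of which 0% of 9579 genes passed. Before adjustment, Synpo in UUO was the 1 tested podocyte gene below 0.05 (-0.34 ± 0.17), as were 340 genes in all, and none was in CL or in the response. In the fit without the filter, Cdkn1c was higher in ABT CL than in IgG CL before adjustment only (0.97 ± 0.41, unadjusted p = 0.0172, adjusted p = 0.926). Between VeKO and VeWT, 0 of 6 passed in any of the 3, in which 0% of 11916 genes passed, and none had an unadjusted p below 0.05. DESeq2 also called 0 podocyte genes in these 6 comparisons. The Veptp libraries numbered 3, 4, 7 and 8 carry opposite genotypes in CL and UUO. Either these numbers do not mark mice or some genotype labels are wrong, and this was not tested. Without these libraries, 0% of 11034 genes passed between VeKO and VeWT in UUO, in CL or in the response.

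In the Pdgfb experiment 18.6% of 10923 genes passed between PbKO and PbWT UUO kidneys and 0 of 6 podocyte genes did. Synpo was the nearest: its 4 PbKO UUO libraries, at 31.5 to 56.6 CPM, lay below its 4 PbWT UUO libraries, at 65.4 to 72.0 CPM, without overlap, and its change was -0.50 ± 0.19 (adjusted p = 0.0668). The change passed in edgeR's exact test of these 2 groups alone (-0.50, adjusted p = 0.0285) and without PbWT CL replicate 1 in the fit (-0.50, adjusted p = 0.0373). Wt1 had 6.63, 6.76, 8.58 and 10.2 CPM in PbKO UUO and 15.9, 13.2, 10.8 and 16.6 CPM in PbWT UUO, again without overlap. Its change was -0.68 ± 0.34 (adjusted p = 0.176). How many of all genes lay without overlap in this comparison was not counted, and 3387 of 10923 had an unadjusted p below 0.05. Without TMM scaling both passed, Synpo at -0.77 (adjusted p = 0.00417) and Wt1 at -0.95 (adjusted p = 0.0360), but the median of all genes then moved from -0.02 to -0.29 and 28.9% of genes passed. Between PbKO and PbWT CL kidneys 0% of genes and 0 of 6 podocyte genes passed, none by unadjusted p.

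The response to UUO, the change in PbKO minus that in PbWT, passed in 8.55% of genes and in 0 of 6 podocyte genes. Wt1 had a difference of -1.32 ± 0.53 (adjusted p = 0.128) and Synpo of -0.67 ± 0.28 (adjusted p = 0.157). Both had an unadjusted p below 0.05 (0.0191 and 0.0267), as did 2369 of 10923 genes in all. Without PbKO CL replicate 1, which had 5.16 CPM of Wt1 where the other 3 had 22.3, 20.5 and 14.0, the Wt1 difference passed (-1.65 ± 0.48, adjusted p = 0.0297). A joint test of whether the UUO response differed among the 6 mouse groups, chosen after seeing the data, passed for no podocyte gene (adjusted p from 0.957 to 1.00) and for 0.0573% of genes. The calls for Synpo in IgG and for Podxl in PbWT and PbKO are therefore not shown to be particular to those mouse groups.

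Ordered by group median, each podocyte gene gave 12 levels whose neighbours could seldom be separated. For Nphs1, Podxl, Wt1, Cdkn1c, Ptpro and Magi2, all 11 pairs of neighbouring groups overlapped, and so did the highest and the lowest group: 27.6 CPM in PbKO CL and 10.2 in VeKO UUO for Nphs1, 155 in PbWT CL and 68.2 in VeKO UUO for Podxl, 17.2 in PbKO CL and 2.71 in VeKO UUO for Wt1, 14.9 in VeKO CL and 2.40 in ABT UUO for Cdkn1c, 19.9 in PbWT UUO and 7.35 in VeWT CL for Ptpro, and 13.8 in PbKO CL and 6.96 in VeWT UUO for Magi2. For Synpo, 10 of 11 neighbouring pairs overlapped, and the highest group, IgG UUO (median 80.8 CPM), lay wholly above the lowest, VeWT CL (19.5 CPM). These orders pool both forms of library name, which differed in level and in their share of each group: 4 of 8 IgG UUO and 4 of 7 VeWT CL libraries had a separator, and no Pdgfb library did.

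Other genes of the podocyte also went both ways in the averaged comparison. Of 11 further slit diaphragm genes with counts, 8 were tested, of which 6 rose (median change 0.49). Kirrel (Neph1, the partner of nephrin) rose by 0.98 (adjusted p = 4.2e-07), the atypical cadherin Fat1 by 0.95 (adjusted p = 2.3e-11) and the nephrin adaptor Cd2ap by 0.74 (adjusted p = 1.4e-14), all genes that tubules and other kidney cells also make.

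Of 15 further foot process cytoskeleton genes 14 were tested, with 6 higher, 5 lower and 3 that did not pass (median 0.10). The formin Inf2 (1.06, adjusted p = 2.2e-08) and Srgap1 (1.20, adjusted p = 3.4e-07) rose, while the GTPase-activating protein Arhgap24 (-0.59, adjusted p = 1.4e-10) and the foot process chloride channel protein Clic5 (-0.42, adjusted p = 1.1e-06) fell. Among 8 further transcription factors 4 were tested and Tcf21, which interstitial cells also make, rose (0.74, adjusted p = 6.0e-05).

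Of 15 further surface and secreted products 13 were tested, with 5 higher and 3 lower (median 0.14). The phospholipase A2 receptor Pla2r1 (0.76, adjusted p = 0.000102) and the integrin chain Itga3 (0.67, adjusted p = 6.3e-07) rose, and Vegfa, the endothelial growth factor that podocytes and tubules both secrete, fell (-0.64, adjusted p = 7.0e-08). All 10 genes of the glomerular basement membrane were tested. Its mature collagen chains Col4a3 (-1.001, adjusted p = 8.2e-14), Col4a4 (-0.78, adjusted p = 2.6e-12) and Col4a5 (-0.34, adjusted p = 0.0414) fell, while 6 laminin, nidogen and proteoglycan genes rose, among them Nid1 (1.12, adjusted p = 3.4e-12) and Agrn (0.93, adjusted p = 7.8e-19).

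Other parts of the kidney were read in the same comparison. All 10 proximal tubule genes fell (median -0.95), all 7 tubular injury genes rose (median 3.93), as did all 7 tested fibroblast genes of 8 listed (median 1.46) and all 9 macrophage genes (median 2.12). Of 9 mesangial and pericyte genes, 6 rose and 3 did not pass (median 0.59), and of 6 parietal epithelium genes 2 rose and 1 fell (median 0.31). The summed proximal tubule level ran from 8641 to 36932 CPM in CL and from 3523 to 25931 CPM in UUO, and that of macrophage genes from 104 to 447 and from 269 to 1094 CPM. Values in CPM are shares of a library, and the part of these changes in the podocyte gene levels was not tested.

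**Figure D3:**
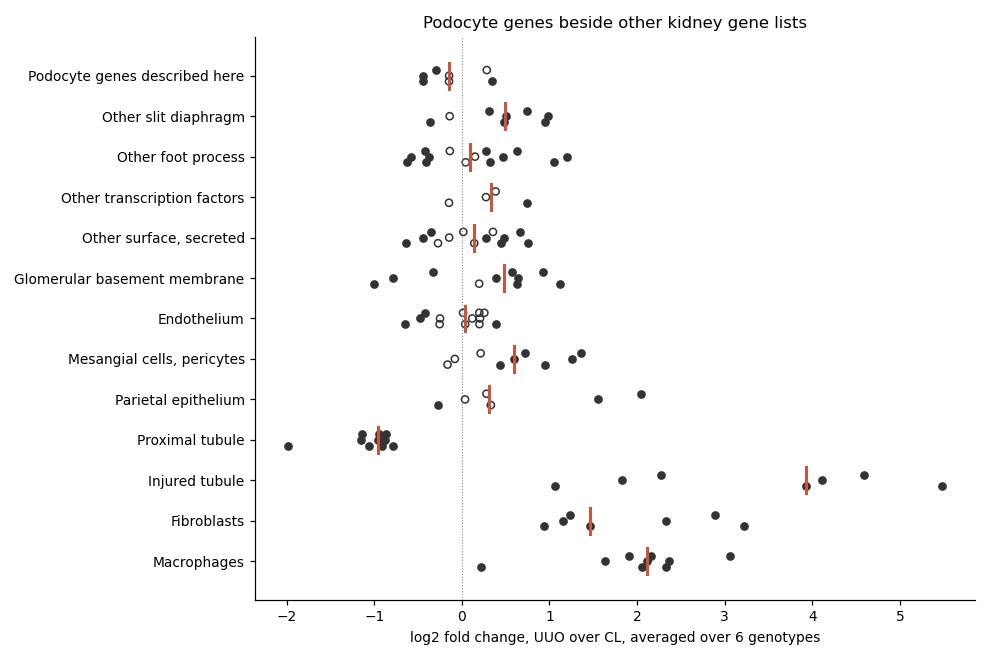
Change in UUO over CL averaged over the 6 mouse groups (x axis, log2 fold change) for each tested gene (points, filled where the adjusted p was below 0.05) of the podocyte genes and of 12 other gene lists (rows), with a red bar at each list's median. The podocyte genes lie between -0.45 and 0.35, whereas the injured tubule genes have a median of 3.93 and the proximal tubule genes of -0.95.

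Within groups, the podocyte genes varied with 2 features of the libraries that the design does not name. The first was the form of the library name. In the ABTAA and Veptp experiments Nphs1 averaged 12.7 CPM in libraries with a separator and 25.3 CPM in those without (-1.02 ± 0.14, adjusted p = 3.3e-09), and Wt1 averaged 4.92 and 8.65 CPM (-0.82 ± 0.21, adjusted p = 0.000449). Ptpro (-0.53), Magi2 (-0.47), Synpo (-0.44) and Podxl (-0.40) were also lower with a separator, and Cdkn1c, at -0.26, did not pass (adjusted p = 0.286). Thus 6 of 7 passed, where 58.9% of all genes did. Both forms occurred in each ABTAA and Veptp group, and with the form as a covariate Synpo, Podxl, Magi2 and Cdkn1c remained the 4 genes called for UUO.

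The second was the level of Xist, the RNA that coats the inactive X chromosome in female cells. This relation was looked for after the data were seen. In the fit over 12 groups with the form of the library name as a further term, Podxl was higher by 0.0694 ± 0.0118 log2 units for each unit of log2 Xist (adjusted p = 4.9e-06), Nphs1 by 0.0733 ± 0.0188 (adjusted p = 0.00324), Synpo by 0.0632 ± 0.0152 (adjusted p = 0.00164) and Ptpro by 0.0794 ± 0.0246 (adjusted p = 0.0180). Wt1 (0.0495, adjusted p = 0.261), Magi2 (0.0532, adjusted p = 0.141) and Cdkn1c (0.0267, adjusted p = 0.577) did not pass. Thus 4 of 7 passed and all 4 were higher with more Xist, where 16.1% of all genes passed and 8.4% were higher.

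With levels centred within group and form, the rank correlation with Xist over the 75 libraries was 0.57 for Podxl, 0.45 for Synpo, 0.42 for Nphs1, 0.35 for Ptpro, 0.24 for Magi2 and for Wt1 and 0.04 for Cdkn1c. That of the mean of the 7 was 0.59 with Xist and -0.70 with the sum of 4 Y-linked genes. All these values share libraries and depth and are given as a description. Median Xist levels differed among the groups, from 0.82 in VeWT CL and 3.32 in VeKO UUO to 8.96 in PbWT UUO (log2 of CPM + 1). With Xist as a covariate Synpo, Podxl, Magi2 and Cdkn1c were again called for UUO, with averaged changes of 0.32, -0.33, -0.46 and -0.46.

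**Figure D4:**
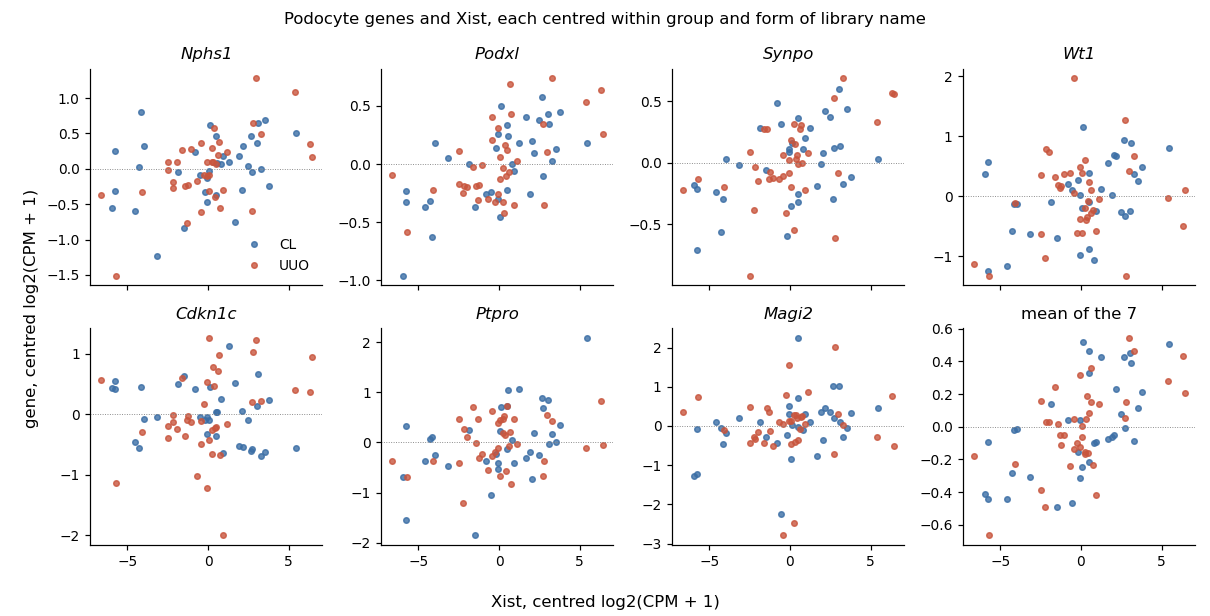
Level of each podocyte gene and of the mean of the 7 (y axis) against the level of Xist (x axis), both as log2(CPM + 1) centred within group and form of library name, for 36 CL (blue) and 39 UUO (red) libraries. Podxl, Synpo and the mean of the 7 are higher where Xist is higher (rank correlations of 0.57, 0.45 and 0.59), and Cdkn1c shows no such slope (0.04).

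The podocyte genes followed one another loosely. Over the 75 libraries, centred as above, the 21 pairs had rank correlations of -0.28 to 0.54 with a median of 0.18, and 18 were above 0. The closest pair was Nphs1 and Ptpro (0.54), followed by Podxl and Synpo (0.47) and by Nphs1 and Synpo (0.36). Magi2 and Wt1 had the lowest value (-0.28). Against the mean of the other 6, Podxl (0.55), Nphs1 (0.53), Ptpro (0.51) and Synpo (0.40) stood above Cdkn1c (0.13), Wt1 (0.10) and Magi2 (-0.02), the 3 genes with the lowest counts. No gene had a rank correlation with the library total outside -0.06 to 0.10.

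**Figure D5:**
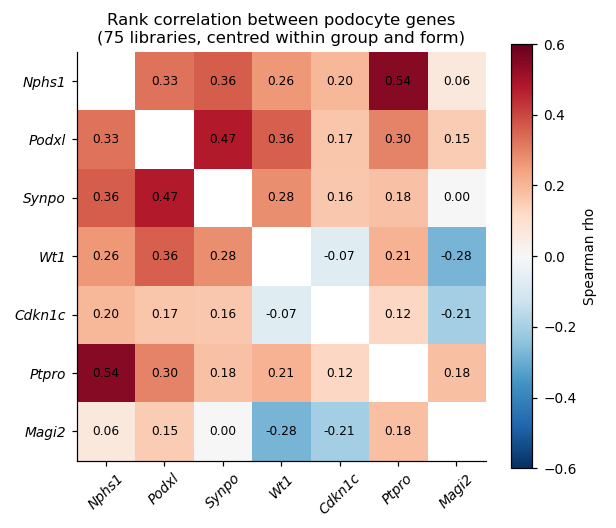
Spearman rank correlation between each pair of podocyte genes (rows and columns, color from -0.6 to 0.6) over 75 libraries, on log2(CPM + 1) centred within group and form of library name. Nphs1 with Ptpro (0.54) and Podxl with Synpo (0.47) are the highest, and Wt1 with Magi2 (-0.28) is the lowest.

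Of 12026 other genes with a mean count of at least 5, the 10 whose levels were most like the mean of the 7 were Oat (0.72), Prlr (0.71), Acot7 (0.71), Car2 (0.71), Kcnk1 (0.70), Elovl6 (0.70), Arvcf (0.69), Slc22a29 (0.69), Cbr1 (0.69) and Rdh16f2 (0.69), by the same rank correlation over 75 libraries. None is in the podocyte lists. Each was itself correlated with Xist (0.49 for Arvcf to 0.85 for Cbr1) and had a Xist term that passed (adjusted p from 1.7e-17 to 0.00408). The highest gene of the podocyte lists was the matrix protein nephronectin (Npnt, 0.64, rank 29). Over all 12026 genes the median was 0.02.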

How the data were processed

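The authors extracted RNA from homogenized kidney, prepared Smart-seq3 libraries with molecular identifiers and merged 4 wells per sample. Per the labels, reads were aligned to mm10 with STAR (2.7.3a), deduplicated with UMI-tools (1.1.4) and counted with featureCounts of Subread (1.4.6-p5). The sources used here do not give the annotation or the strand setting. The deposited values are raw counts per gene for 75 libraries, all matched to samples by title, and no row lacked a gene name.

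Here CPM were computed with TMM factors. Tests used edgeR (4.0.16) in R (4.3.3): quasi-likelihood fits after filterByExpr, 1 per experiment over its 4 groups and 1 over all 12 groups for the averaged comparison, with Benjamini-Hochberg adjustment and a threshold of 0.05. The models were tested on simulated data. The study's methods name pairwise exact tests, which were run as an alternative, as were DESeq2 (1.42.0), other filters and scalings, covariates and omitted libraries. The Xist covariate and the joint test were chosen after seeing the data. Correlations used log2(CPM + 1). Figures were drawn with matplotlib (3.10.9).

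Named were all 7 podocyte genes, up to 4 genes per list by lowest adjusted p with defining markers, 10 genes by likeness and the deleted genes. Clic5, Col4a5, Npnt, Havcr1 and Xist were added after their values were seen. The members and lists were chosen with earlier results of these data known. The listed symbol Kirrel1 had no row (Kirrel did). Some genes of the lists are not reported here.

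Numbers in library names were treated as replicate numbers: deviations of same-numbered CL and UUO libraries from their group means correlated at 0.23 to 0.39 in the ABTAA experiment (3 pairs) and at 0.39 to 0.64 in the Veptp experiment (8 pairs), all above 0.1, and the numbers were therefore taken to pair samples. Differently numbered libraries averaged 0.15 to 0.18 and 0.27 to 0.51 on the same measure, and with deviations taken within group and form of name the same-numbered pairs correlated at 0.06 to 0.42, so that the pairing is a hint from the data and not from the labels. In the Veptp experiment the numbers 3, 4, 7 and 8 carry opposite genotypes in CL and UUO. No 2 libraries of a group agreed within sampling noise (lowest chi-square per degree of freedom 1.54 over 214 pairs).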

Additional observations from a re-analysis of the deposited data

Results flagged for a closer look

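In the 12 groups of 4 to 8 libraries, 6 of 84 combinations of a podocyte gene and a group held a library far from the rest, where 1 in 20 (4.2) would be flagged by chance. The PbKO CL library of replicate 3 had 13.6 CPM of Nphs1 (6 counts), beside 26.9 to 29.7 in the others. Synpo was at 129 CPM in IgG UUO replicate 5, beside 76.6 to 92.9, and at 23.6 CPM in VeWT UUO replicate 8, beside 48.4 to 88.0. Magi2 was at 0 in VeKO CL replicate 2, the library with a high Havcr1 level (others 9.26 to 21.5 CPM), in VeWT UUO replicate 4 (others 5.01 to 15.2) and in VeKO UUO replicate 3 (others 5.97 to 26.8).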

How the results depend on the processing

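Averaged over 6 genotypes, 4 podocyte genes were called for UUO (50.6% of all genes). The count was 2 without TMM factors (57.1% of all genes) and 2 with a mean count of at least 10 (4 genes tested, 51.3%). It was 2 over libraries with a separator in the name alone (49.1%), 3 over those without (43%) and 3 with DESeq2 (44.4%). Without TMM the median change of all genes moved from 0.02 to 0.21, Podxl, Magi2 and Cdkn1c were no longer called, Ptpro was (0.48, adjusted p = 0.0114), and Nphs1 (0.0425) and Wt1 (0.0459) turned above 0; the fall of Podxl, Magi2 and Cdkn1c is thus a fall relative to the other genes. Leaving out each library in turn gave 3 to 4 calls for the average, 1 to 1 in IgG, 0 to 1 in VeWT, 0 to 1 in PbWT, 0 to 1 in PbKO, 0 to 1 for PbKO versus PbWT in UUO and 0 to 1 for the response in PbKO versus PbWT. Without VeKO CL replicate 2 all 4 averaged calls were made.

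In IgG the count of 1 (34.5% of all genes) became 0 with all 12 groups in 1 fit (28%) and 0 over libraries without a separator (23.3%). In VeWT the count of 0 became 1 without TMM, with DESeq2, in the exact test without TMM, with all 12 groups in 1 fit, with the form of library name, with Xist and with both as covariates, and over libraries with a separator, where 16.2% to 33.9% of all genes were called. With the replicate block it became 2 (29.8% of all genes), and the block changed no other count it was run for (4 for the average, 1 in IgG, 0 in the other ABTAA and Veptp comparisons); it was not run for the Pdgfb comparisons, since only numbers after a separator were used. In PbWT the count of 1 (Podxl, lower) became 3 without TMM and 3 in the exact test without TMM, where Podxl was lost and Synpo, Ptpro and Wt1 were called as higher (51.3% and 51.5% of all genes called). It became 0 with 12 groups (20.5% of all genes, beside 37.3% in the main fit). In PbKO 1 became 0 with 12 groups (1.02% of all genes, beside 6.37%). PbKO versus PbWT in UUO gave 2 without TMM (Synpo and Wt1), 1 in the exact test (Synpo) and 3 in the exact test without TMM (Synpo, Wt1 and Ptpro), all lower, instead of 0 (28.9%, 21% and 32.9% of all genes), and the response in PbKO versus PbWT gave 1 without TMM (Synpo, -0.96, adjusted p = 0.0335). The causes were not tested.

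Directions turned for changes that had not passed. Podxl in IgG was 0.14 without TMM, 0.15 in the exact test without TMM and 0.0591 with separator, and in VeWT 0.15, 0.0237 with DESeq2, 0.0103 and 0.16 in the exact tests, 0.17 with separator and 0.0029 without libraries under 300000 counts. Ptpro was -0.29 in IgG and -0.0197 in ABT without separator, and -0.0416 for ABT versus IgG and -0.0040 for VeKO versus VeWT in UUO with separator. Nphs1 was 0.20 in VeWT with separator and 0.12 for VeKO versus VeWT in UUO with the replicate block. Cdkn1c in VeKO was 0.22 with the block and 0.18 without the numbers 3, 4, 7 and 8, and -0.25 for VeKO versus VeWT in UUO with separator. With 1 library left out, Podxl ran from -0.16 to 0.0358 in IgG, -0.13 to 0.18 in VeWT and -0.0377 to 0.18 for ABT versus IgG in UUO; Nphs1 from -0.0635 to 0.28 in ABT, -0.40 to 0.13 in VeWT, -0.15 to 0.27 in PbWT and -0.30 to 0.12 for PbKO versus PbWT in UUO; Ptpro from -0.0646 to 0.38 in ABT, -0.0608 to 0.18 for ABT versus IgG and -0.0720 to 0.28 for VeKO versus VeWT in UUO; and Magi2 from -0.0735 to 0.40 for VeKO versus VeWT in UUO. Wt1, Cdkn1c and Magi2 had the lowest counts.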
